A study of Mus musculus with 2 samples.

Results

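The genes described here are 37 liver genes of blood coagulation, fibrinolysis and complement: 21 of coagulation and fibrinolysis and 16 of complement. They were taken from a list of symbols, which was chosen with earlier results of these data known. All 37 were among the 15348 genes of the deposited table. All 37 also passed the filter on low levels, a mean of both libraries of at least 10, which 7602 genes passed. The question was how coagulation and complement transcripts differed between livers of mice given ortho-toluidine (OTD), an aromatic amine, and livers of untreated mice, and whether the 2 classes differed from each other.

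Both groups were female NOG-TKm30 mice, 16 weeks old by the labels. NOG mice are immunodeficient mice of NOD background, and both groups carried a mutant herpes simplex thymidine kinase cDNA (HSVtk, clone 30) driven by the enhancer and promoter of mouse transthyretin, a gene of hepatocytes. The OTD group received 0.6% OTD during 1 week followed by 0.3% during 3 weeks, and the control group 0%, over 4 weeks in all. The strain label and the design text give NOG-TKm30, while the treatment text names C57BL mice. Both column names of the deposited table carry the word Wild, which no label explains, so that the columns hold the transgenic mice rests on the sample labels alone. Liver RNA was mixed from 3 control mice and from 5 OTD mice, so each group was 1 library, and no spread between mice was measured. No difference below therefore has a replicate check or a p-value.

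Hepatocytes make most of the plasma proteins of both systems. In coagulation, serine protease zymogens activate each other in sequence until thrombin turns fibrinogen into fibrin, while serpins and protein C limit the process and plasmin dissolves the clot. Complement is a related protease cascade that starts from antibody, from lectins or from spontaneous C3 turnover, meets at the cleavage of C3, and ends in a membrane pore built from C5 to C9.

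The control library held 13569189 reads and the OTD library 14685193. Levels are the deposited values, which behave as CPM (reads scaled to a common library total) times a constant of each library. The ribosomal RNA precursor Rn45s made up 1.47% of reads in control and 2.66% in OTD, and a scaling that leaves it out moves all the ratios below upward together. The hepatocyte markers of the fixed list (Alb, Apoa1, Ttr, Cps1, Tat and Apob) were all abundant, with a summed level of 115145 in control and 101356 in OTD. Alb made up most of that sum, and the markers went both ways. As deposited, Cps1 and Tat were higher in OTD, and Alb, Apoa1, Ttr and Apob were lower, each beyond counting error. Summed levels of markers of other cells were 267.5 and 248.9 for 6 Kupffer cell genes, 467.6 and 440.9 for 6 sinusoidal endothelial genes, and 554.4 and 514.7 for 6 stellate cell genes. Marco and Cd68 of the Kupffer cell genes, Stab1 and Lyve1 of the endothelial genes and Col1a1 of the stellate cell genes were higher in OTD. The rest of these genes were lower. Summed levels were 46.1 and 43.1 for 5 cholangiocyte genes. Sox9 and Spp1 were lower in OTD. Krt19 (21 and 30 reads), Krt7 (10 and 26) and Epcam (10 and 13) were near the floor and higher in OTD. Of 6 listed platelet and megakaryocyte markers, 5 were in the deposited table. These were near the floor, with 46 reads in control and 118 in OTD in all, a summed ratio of 2.28 (counting interval 1.61 to 3.28). No listed marker in the table stood at 0. The part of cell composition in the results was not tested, and in bulk liver fewer cells of a type and less RNA per cell cannot be told apart.

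Most members were slightly lower in the OTD pool. C4b, C3 and F5 were lower and F11 was higher past the size used here to count a difference, a log2 ratio of at least 0.32 either way with a pseudocount of 1 (25% higher or 20% lower). Of the 37 members, 3 (8.11%) were lower and 1 (2.70%) was higher by that size. Among all 7602 measured genes, 4.95% were lower and 7.10% higher. After scaling to the same read total, with or without Rn45s, C3 and F5 no longer passed, which left C4b as the 1 lower member and F11 as the 1 higher. Of all measured genes, 3.17% were then lower and 10.3% higher with Rn45s in the total, and 2.95% and 11.4% without it. As deposited, no member reached 1.5-fold, which 0.908% of measured genes passed as lower and 1.51% as higher. The share of lower members was near that background.

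The direction was more uniform than the size. A log2 ratio of OTD over control below 0 was found for 32 of 37 members, and for 51.6% of all measured genes. After scaling to the same read total it was found for 29 members and 39.4% of measured genes. Where that total excluded Rn45s, it was found for 24 members and 35.3% of measured genes. The 95% counting interval of the ratio lay below 1 for 27 members and above 1 for 3 (F11, Masp1 and Mbl2). Among all measured genes the interval lay below 1 for 19.6% and above 1 for 18.6%. These intervals cover counting error only, and abundant genes such as the members have narrow ones. The interval counts here and all intervals below are for the deposited scaling and were not recomputed under the others. A scaling that leaves out Rn45s moves the intervals upward with the ratios, so fewer would lie below 1. The members had a median log2 ratio of −0.13 with an SD of 0.15, against −0.0063 (SD 0.24) for all measured genes.

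Level moved with this direction. Among measured genes with a mean level of at least 1000, 77.0% of 113 genes were below 0 with a median log2 ratio of −0.12. All 11 members in that band were below 0 (10 after scaling without Rn45s, where Fgb turned positive), with a median of −0.17. The share of the 113 genes was not recomputed under that scaling. Between 100 and 1000, 59.5% of 1373 genes were below 0 with a median of −0.038, and 19 of 23 members were below 0 with a median of −0.083. The remaining 3 members, between 10 and 100, were F11, Pros1 and C6, and 2 of them were below 0. Across the 37 members, which share both libraries, Spearman's rho between mean level and log2 ratio was −0.30, and it was −0.097 across all 7602 measured genes. The part of level in the members' direction was not tested.

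**Figure D1:**
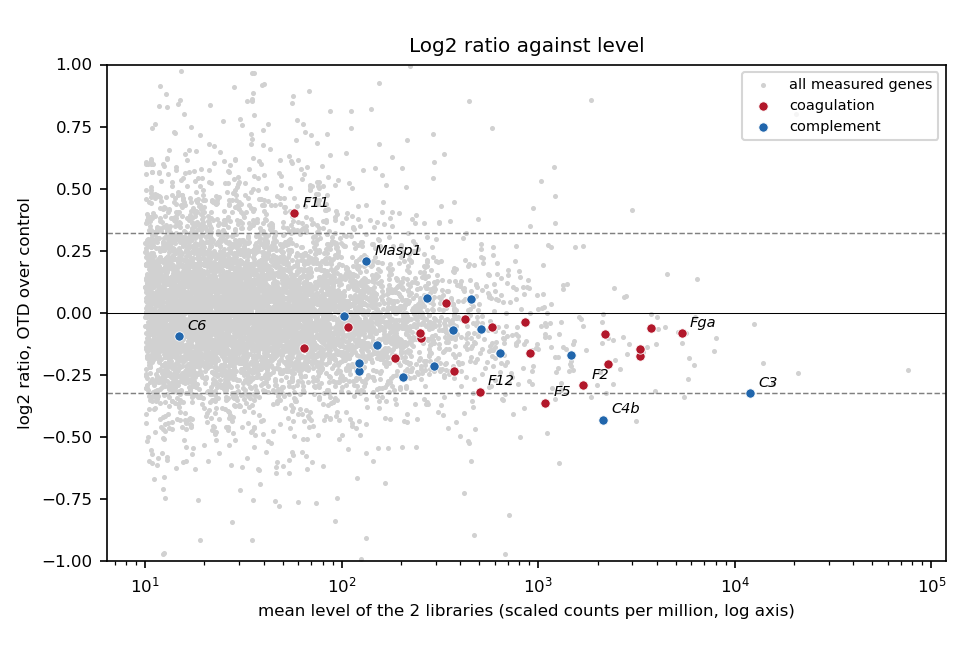
Log2 ratio of OTD over control (vertical, pseudocount 1) against the mean level of both libraries (horizontal, scaled CPM, log axis), with 1 point per gene; red points are coagulation genes, blue points complement genes and gray points all 7602 measured genes, 32 of which lie outside the plotted range. Dashed lines mark log2 ratios of 0.32 in either direction; F11 lies above the upper line, C4b, F5 and C3 lie below the lower line, and the abundant members lie below 0.

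Most genes of both classes were below 0, and the complement genes had the lower median. The median log2 ratio was −0.10 over 21 coagulation genes (SD 0.16, range −0.36 to 0.40) and −0.15 over 16 complement genes (SD 0.16, range −0.43 to 0.21). The difference of the medians was −0.046, which with 1 library per group was not tested, and the ranges overlapped. Below 0 were 19 of 21 coagulation genes and 13 of 16 complement genes. Past the 0.32 threshold were 1 higher and 1 lower of the coagulation genes, and 0 higher and 2 lower of the complement genes.

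By summed level, which the most abundant genes dominate, the classes stood further apart. The coagulation genes together made up 2.85% of reads in control and 2.70% in OTD, and their summed level had a ratio of 0.910 (0.906 to 0.914). The complement genes made up 2.04% and 1.75%, with a ratio of 0.824 (0.819 to 0.828). C3 alone made up most of the complement sum, and without it the ratio was 0.866 (0.858 to 0.874). Without C4b it was 0.835 (0.830 to 0.839). The median of the complement genes was −0.13 without C3 and also −0.13 without C4b.

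**Figure D2:**
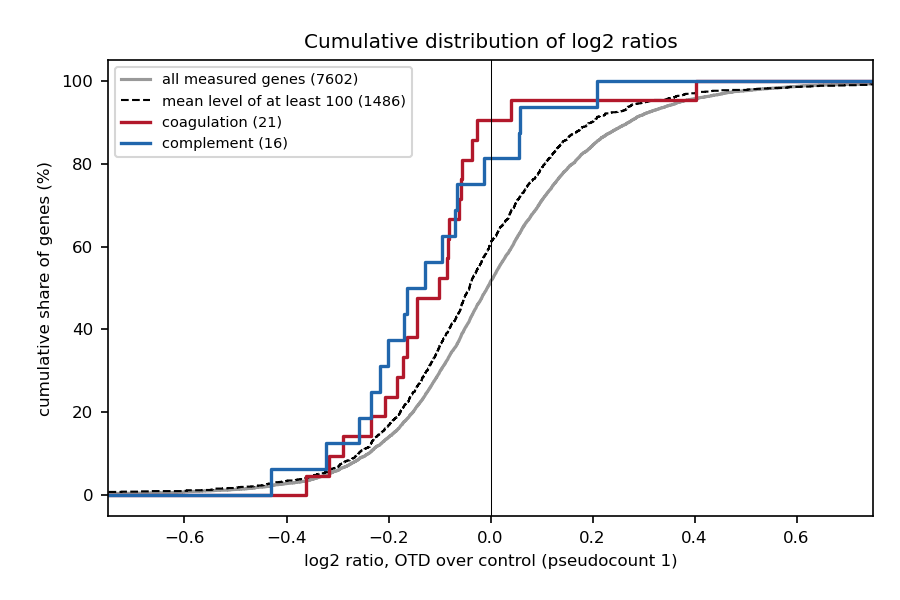
Cumulative share of genes (vertical, percent) at or below each log2 ratio of OTD over control (horizontal, pseudocount 1), for 21 coagulation genes (red), 16 complement genes (blue), 7602 measured genes (gray) and the 1486 of them with a mean level of at least 100 (dashed). The red and blue steps cross each other and both lie left of the gray and dashed curves over most of their length.

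Among the coagulation genes, the vitamin K-dependent factors and their cofactor were all below 0, except that F10 turned positive after scaling to the same read total, and F7 too where that total excluded Rn45s. These 7 genes had a median log2 ratio of −0.18. F5, which encodes factor V, the cofactor that speeds thrombin formation, stood at 1222 in control and 951 in OTD, from 16264 and 14232 reads. Its ratio was 0.778 (0.761 to 0.796), the lowest of the coagulation genes. The F5 gene lies on chromosome 1 of GRCm38 at 164151838 to 164220277 (plus strand, protein-coding, 25 exons), and overlaps the antisense gene Gm16548, which the table also lists. Use of strand in counting is not given in the sources used here.

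F2, which encodes prothrombin, the precursor of thrombin, had 1857 in control and 1519 in OTD. Its ratio was 0.818 (0.803 to 0.833). Proc, the zymogen of the anticoagulant protein C, had 404.4 and 343.6, a ratio of 0.850 (0.818 to 0.883). F9, which encodes factor IX, the protease missing in hemophilia B, had 198.3 and 174.5, a ratio of 0.880 (0.833 to 0.929). Pros1, which encodes protein S, the cofactor of protein C, had 67.2 and 60.7, with a ratio of 0.904 (0.823 to 0.993). Of these 4 genes none passed the threshold, and each counting interval lay below 1.

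F10 and F7, which lie next to each other on chromosome 8 and encode the proteases of the common and the tissue factor pathway, were the exceptions in size. F10 had 429.2 in control and 421.3 in OTD, a ratio of 0.982 (0.947 to 1.02). F7 had 109.2 and 104.9, a ratio of 0.961 (0.894 to 1.03). Neither ratio could be told from 1 at this depth. The ratio of F10 divided by that of F7 was 1.02 (0.943 to 1.11).

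**Figure D3:**
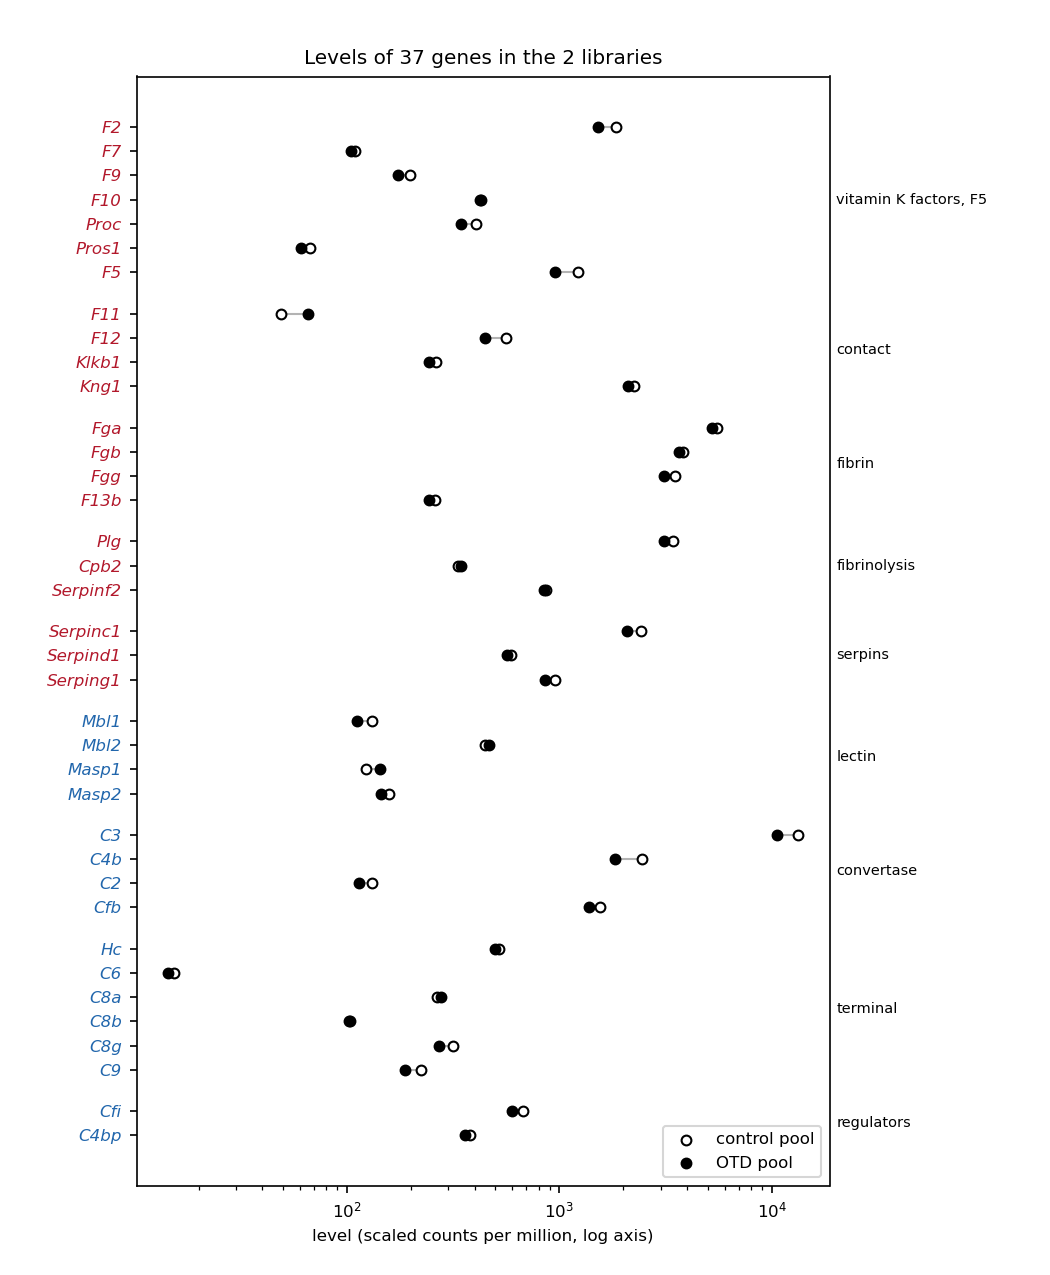
Level of each of the 37 genes (horizontal, scaled CPM, log axis) in the control pool (open circles) and the OTD pool (filled circles), with genes grouped by role and named in red for coagulation and blue for complement. Levels run from 15.4 for C6 to 13290 for C3 in control, and filled circles lie left of open ones for 32 of the 37 genes.

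The contact system held the member furthest above 0. F11, which encodes factor XI, the zymogen that activates factor IX, stood at 49.1 in control (654 reads) and 65.3 in OTD (977 reads). Its ratio was 1.33 (1.20 to 1.47), so the counting interval reached below the threshold for 25% higher. The gene lies on chromosome 8 at 45241174 to 45262031 (minus strand, protein-coding, 15 exons). Klkb1, its paralogue and neighbour at 45266689 to 45294859 on the same strand, encodes plasma prekallikrein. It had 261.4 in control and 243.7 in OTD, a ratio of 0.933 (0.890 to 0.977). The ratio of F11 was 1.42 times that of Klkb1 (1.28 to 1.59), so the neighbours differed by more than counting error. Of the stretches of 50 bases in Klkb1 transcripts, 42.7% also occur in the overlapping gene model Gm45753, which is not in the table. F11 shared none with another gene.

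F12, which encodes factor XII, the zymogen that starts contact activation, had 558.4 in control and 448.0 in OTD, with a ratio of 0.802 (0.776 to 0.829). On the log2 scale F12, at −0.317, lay just short of the threshold, and C3, at −0.322, just past it. The ratio of F11 was 1.66 times that of F12 (1.49 to 1.84). Kng1, which encodes high molecular weight kininogen, the carrier of prekallikrein and factor XI and the source of bradykinin, had 2238 and 2109, a ratio of 0.942 (0.928 to 0.957). Its neighbouring copy Kng2 had a ratio of 0.963 (0.921 to 1.01), and 17.2% of the 50-base stretches of Kng1 also occur in Kng2, so reads may have been split between them.

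The promoter windows of F11 and F5 are shown because these were the coagulation genes past the threshold. RefSeq windows on GRCm38.p6 reach from 250 bases before to 50 bases after the start, and the sequence is written 5′ to 3′ on the strand of the gene. The F11 window is chr8:45261982-45262281 (minus strand) and the F5 window chr1:164151585-164151884 (plus strand). Capitals mark matches to motifs of liver factors, searched on both strands: GTTAAT for HNF1, CAAAGTNCA for HNF4, TTGCNNAA for C/EBP and TTCNNNGAA for STAT. The capitals in F11 are a C/EBP match starting at position −17. No letters of the F5 window matched.
F11: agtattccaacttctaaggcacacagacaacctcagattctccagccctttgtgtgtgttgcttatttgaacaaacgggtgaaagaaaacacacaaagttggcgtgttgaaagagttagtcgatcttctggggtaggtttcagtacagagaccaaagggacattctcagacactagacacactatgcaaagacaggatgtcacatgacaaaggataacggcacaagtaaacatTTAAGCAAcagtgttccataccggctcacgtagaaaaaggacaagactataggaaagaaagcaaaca
F5: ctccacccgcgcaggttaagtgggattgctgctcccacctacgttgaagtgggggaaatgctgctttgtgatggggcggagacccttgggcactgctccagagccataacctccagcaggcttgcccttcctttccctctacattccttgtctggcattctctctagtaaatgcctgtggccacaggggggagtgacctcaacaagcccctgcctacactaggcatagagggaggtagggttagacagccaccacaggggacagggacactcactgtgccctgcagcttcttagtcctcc

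Fibrin genes were close to each other. Fibrinogen consists of alpha, beta and gamma chains encoded by Fga, Fgb and Fgg, which stand in 1 cluster on chromosome 3 between 83007724 and 83049863. Fga stood at 5519 in control and 5214 in OTD, a ratio of 0.945 (0.935 to 0.954). Fgb had 3832 and 3672, a ratio of 0.958 (0.947 to 0.970). Fgg had 3498 and 3105, a ratio of 0.888 (0.876 to 0.899). The ratios of Fga and Fgb differed by less than counting error (0.986, 0.971 to 1.00), while that of Fga was 1.06 times that of Fgg (1.05 to 1.08).

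Per kilobase of transcript, Fga and Fgg stood at similar control levels, 2134 and 2009, and Fgb at 1006. These values rest on the annotated lengths used, 2587 bases for Fga, 1741 for Fgg and 3810 for Fgb. Before division by length, Fgb stood above Fgg. In OTD the levels per kilobase were 2016 for Fga, 1784 for Fgg and 964 for Fgb. F13b, which encodes the carrier subunit of factor XIII, the enzyme that crosslinks fibrin, had 258.5 and 244.0, a ratio of 0.944 (0.901 to 0.989). The catalytic subunit gene F13a1, a gene of platelets and macrophages, had 1 read in control and 6 in OTD.

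The Fga and Fgb windows are shown because they were the member windows that held matches to the HNF1, C/EBP and STAT motifs together, and they were chosen after those matches were seen. They are chr3:83025903-83026202 (plus strand) and chr3:83049814-83050113 (minus strand). In the Fga window a STAT match (TTCCTGGAA) starts at −234, a C/EBP match (TTGAGCAA) at −135 and an HNF1 match (ATTAAC, the reverse complement of GTTAAT) at −43. In the Fgb window the same kinds of match start at −162, −80 and −29, so their order is the same.
Fga: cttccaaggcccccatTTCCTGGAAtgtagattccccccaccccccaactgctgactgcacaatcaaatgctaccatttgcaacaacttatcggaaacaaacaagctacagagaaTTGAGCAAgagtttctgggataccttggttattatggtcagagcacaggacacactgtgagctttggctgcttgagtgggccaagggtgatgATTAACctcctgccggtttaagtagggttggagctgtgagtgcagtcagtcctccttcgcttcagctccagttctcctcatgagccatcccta
Fgb: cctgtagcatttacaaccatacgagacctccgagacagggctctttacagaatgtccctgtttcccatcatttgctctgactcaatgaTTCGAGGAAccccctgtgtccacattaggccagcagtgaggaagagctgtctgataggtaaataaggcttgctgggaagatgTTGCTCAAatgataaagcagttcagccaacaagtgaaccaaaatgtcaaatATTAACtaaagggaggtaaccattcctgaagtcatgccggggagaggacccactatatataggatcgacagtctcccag

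Fibrinolysis genes differed little. Plg, which encodes plasminogen, the precursor of the protease that dissolves fibrin, had 3437 in control and 3111 in OTD, a ratio of 0.905 (0.893 to 0.917). Serpinf2, which encodes the plasmin inhibitor alpha-2-antiplasmin, had 866.8 and 845.5, a ratio of 0.975 (0.951 to 1.00). Cpb2, which encodes the carboxypeptidase TAFI that protects fibrin from plasmin, had 333.2 and 342.6, a ratio of 1.03 (0.988 to 1.07). As deposited, Plg was thus lower beyond counting error, and both antifibrinolytic genes could not be told from 1. After scaling to the read total without Rn45s, the log2 ratios were −0.071 for Plg, 0.037 for Serpinf2 and 0.11 for Cpb2.

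The serpin inhibitors were all lower, by less than the threshold, although Serpind1 turned positive after scaling to the read total without Rn45s. Serpinc1, which encodes antithrombin, had 2414 in control and 2091 in OTD, a ratio of 0.866 (0.853 to 0.880). Serping1, which encodes the C1 inhibitor that acts on both the contact system and complement, had 955.5 and 853.3, a ratio of 0.893 (0.871 to 0.915). Serpind1, which encodes heparin cofactor II, had 589.7 and 566.9, a ratio of 0.961 (0.932 to 0.991). Serping1 is counted with coagulation here; counted with complement it left the medians at −0.093 for 20 coagulation genes and −0.16 for 17 complement genes.

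**Figure D4:**
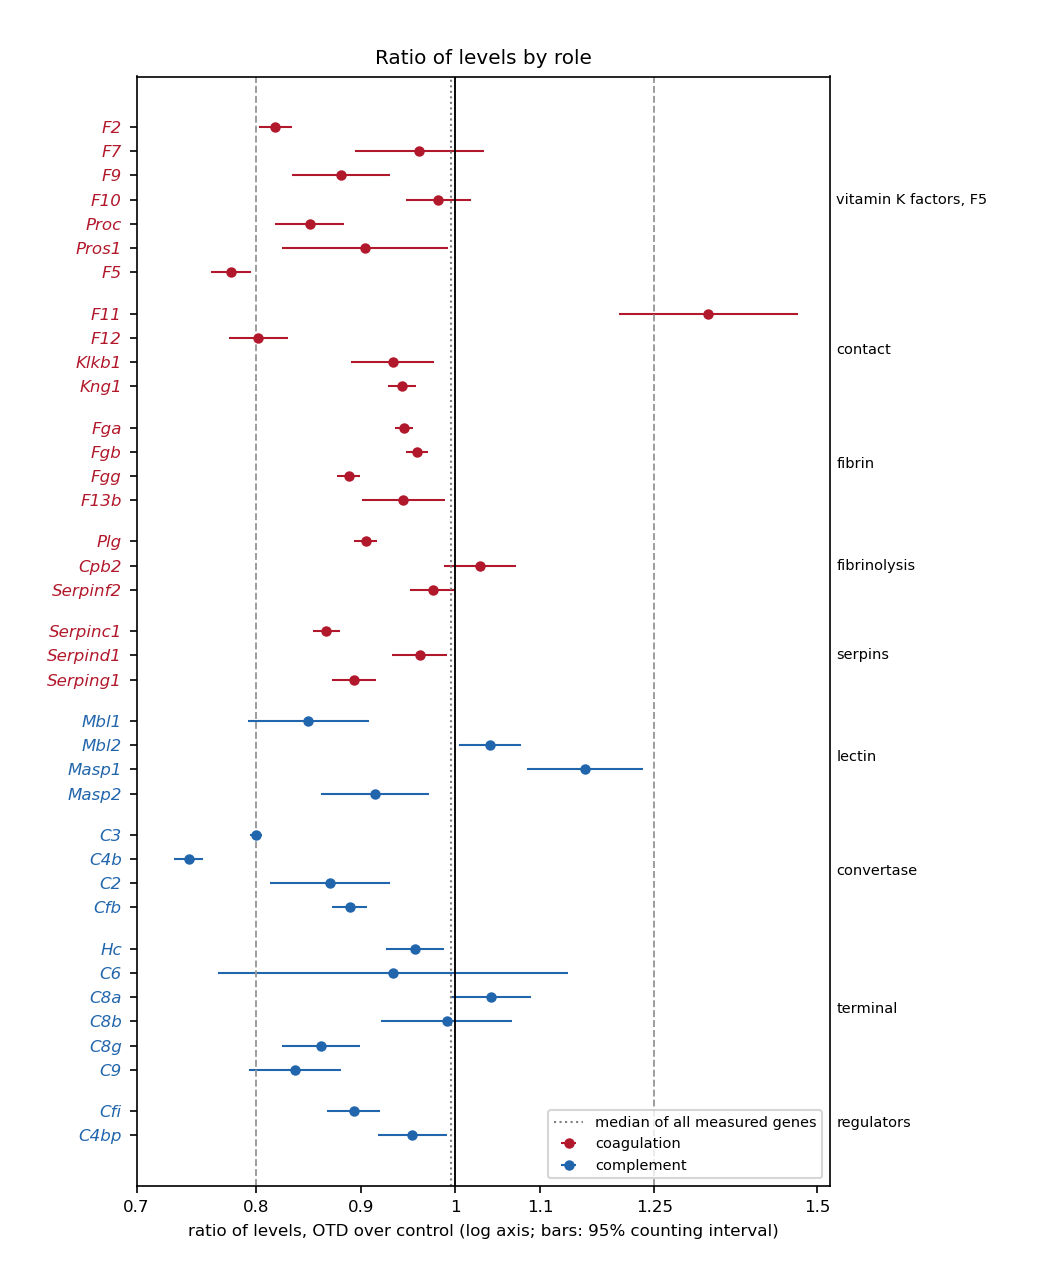
Ratio of levels, OTD over control (horizontal, log axis), for each of the 37 genes by role, with bars for the 95% counting interval, a solid line at 1, a dotted line at the median of all measured genes and dashed lines at the threshold in either direction. F11 is the rightmost point at 1.33 and C4b the leftmost at 0.742.

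Among complement genes, all 4 components of the C3 convertases were below 0, and 2 of them, C3 and C4b, passed the threshold, which 4.95% of all measured genes passed as lower. The 4 genes had a median log2 ratio of −0.26 and a summed level of 17425 in control and 13944 in OTD, a ratio of 0.800 (0.795 to 0.805). C4b, which encodes complement C4 of the classical and lectin pathways, stood at 2453 in control and 1820 in OTD, from 32645 and 27242 reads. Its ratio was 0.742 (0.730 to 0.754), the lowest of the 37 genes. C4b lies on chromosome 17 at 34728380 to 34743882 (minus strand, protein-coding, 41 exons). Of its 50-base stretches, 34.6% also occur in the neighbouring copy C4a, which encodes the sex-limited protein. C4a had 132 reads in control and 118 in OTD, and its ratio of 0.795 (0.615 to 1.03) did not differ from that of C4b beyond counting error.

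C3, which encodes the protein at which all complement pathways meet, was the most abundant member, with 13290 in control and 10631 in OTD. Its ratio was 0.800 (0.795 to 0.805). The gene lies on chromosome 17 at 57203970 to 57228136 (minus strand, protein-coding, 41 exons). Cfb, which encodes factor B, the protease of the alternative pathway, had 1552 and 1380, a ratio of 0.889 (0.872 to 0.906). C2, its paralogue and neighbour, which serves the classical and lectin pathways, had 130.7 and 113.6, a ratio of 0.869 (0.813 to 0.930). The ratios of C2 and Cfb differed by less than counting error (0.978, 0.912 to 1.05). The gene model Gm20547, not in the table, overlaps both and holds 38.7% of the stretches of C2 and 73.0% of those of Cfb, so reads of this pair are less certainly placed.

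The C3 window, chr17:57228087-57228386 (minus strand), is shown because C3 was the most abundant member and past the threshold. Its capitals are a C/EBP match starting at −45. No window was found for C4b, which was also past the threshold.
C3: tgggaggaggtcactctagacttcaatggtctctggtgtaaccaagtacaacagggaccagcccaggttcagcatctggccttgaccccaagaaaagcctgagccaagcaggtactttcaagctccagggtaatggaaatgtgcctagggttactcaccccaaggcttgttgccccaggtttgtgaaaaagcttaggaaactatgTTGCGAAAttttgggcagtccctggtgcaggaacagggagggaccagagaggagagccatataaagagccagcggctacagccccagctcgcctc

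C3, C4b and Hc are paralogues of 41 annotated exons each. Hc, which encodes complement C5, is known to carry a frameshift allele in NOD mice that leaves them without circulating C5, and whether these mice carried it was not tested. Its transcript was measured at 522.1 in control and 499.2 in OTD, a ratio of 0.956 (0.925 to 0.988). The ratio of C3 was 0.837 times that of Hc (0.809 to 0.865), and that of C4b 0.776 times (0.748 to 0.805). Per kilobase of transcript, control levels were 2588 for C3, 456 for C4b and 95.9 for Hc, and OTD levels 2070, 338 and 91.7. The order of the paralogues was the same in both pools.

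The chains of the C8 protein did not move together. C8a and C8b, which encode the pore-forming alpha and beta chains and stand side by side on chromosome 4, had 266.5 and 103.2 in control and 277.5 and 102.2 in OTD. The ratio was 1.04 (0.995 to 1.09) for C8a and 0.991 (0.921 to 1.07) for C8b, and neither was told from 1. C8g, which encodes the small gamma chain, a lipocalin and not a member of the pore protein family, had 314.9 and 270.9, a ratio of 0.860 (0.824 to 0.899). The ratio of C8a was 1.21 times that of C8g (1.14 to 1.29) and that of C8b 1.15 times (1.06 to 1.253). C8g overlaps Fbxw5 on the opposite strand, and Fbxw5 is in the table.

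C9, whose product forms the ring of the membrane pore, had 224.1 in control and 187.4 in OTD, a ratio of 0.836 (0.794 to 0.881). C6, which joins the complex after C5b, was the lowest member by level, with 15.4 and 14.4 from 205 and 215 reads. Its ratio of 0.933 had an interval of 0.767 to 1.13, so a difference was not detectable at this depth. C7, which is not a member, had 8 reads in each library. Cfi, which encodes the protease that inactivates C3b and C4b, had 671.6 and 599.5, a ratio of 0.893 (0.867 to 0.919). C4bp, which encodes the cofactor of that protease for C4b, had 378.1 and 360.4, a ratio of 0.953 (0.917 to 0.991).

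Lectin pathway genes went both ways, with a summed ratio of 1.00 (0.979 to 1.03). The mannose-binding lectin genes recognise sugars on microbes. Mbl1 had 131.6 in control and 111.7 in OTD, a ratio of 0.849 (0.793 to 0.908). Mbl2 had 446.1 and 463.8, a ratio of 1.04 (1.00 to 1.08). The ratio of Mbl2 was 1.23 times that of Mbl1 (1.14 to 1.32). Masp1 and Masp2 encode the proteases bound to these lectins. Masp1 had 123.2 and 142.5, a ratio of 1.16 (1.08 to 1.23), and Masp2 had 158.1 and 144.6, a ratio of 0.914 (0.861 to 0.971). The ratio of Masp1 was 1.27 times that of Masp2 (1.16 to 1.38). In each pair 1 gene was higher and the other lower, by less than the threshold. Masp1 overlaps Rtp4 and Masp2 overlaps Tardbp, each on the opposite strand, and Rtp4 and Tardbp are in the table too.

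The Mbl1 and Mbl2 windows are shown because these homologues differed in direction. Mbl1 lies on chromosome 14 and Mbl2 on chromosome 19, and the windows are chr14:41151206-41151505 and chr19:30232678-30232977 (both plus strand). Here the capitals mark the longest run of bases that both windows share, 13 bases starting at −23 in Mbl1 and at −57 in Mbl2. Neither window held a match to the 4 motifs.
Mbl1: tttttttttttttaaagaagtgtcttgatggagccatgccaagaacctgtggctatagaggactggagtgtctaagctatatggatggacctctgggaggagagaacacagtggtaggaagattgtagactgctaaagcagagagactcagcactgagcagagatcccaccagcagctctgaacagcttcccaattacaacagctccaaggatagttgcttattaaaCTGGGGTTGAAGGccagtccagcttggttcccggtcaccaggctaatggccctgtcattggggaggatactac
Mbl2: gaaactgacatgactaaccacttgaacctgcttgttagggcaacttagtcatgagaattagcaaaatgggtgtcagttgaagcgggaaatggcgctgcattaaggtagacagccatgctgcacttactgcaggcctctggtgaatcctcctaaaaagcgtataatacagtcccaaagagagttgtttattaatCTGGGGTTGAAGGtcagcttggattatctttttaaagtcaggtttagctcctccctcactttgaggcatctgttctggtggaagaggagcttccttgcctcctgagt

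RefSeq windows were found for 28 of the 37 members. C4b, C2, Cfb, Cfi, Kng1, Masp1, Plg, Proc and Serping1 had none and are outside the counts here. GTTAAT occurred on either strand in 8 of the 28 members (28.6%) and in 7.10% of 32851 windows of all genes. TTGCNNAA occurred in 9 members (32.1%) and 10.8% of all windows, and TTCNNNGAA in 6 (21.4%) and 8.30%. CAAAGTNCA occurred in 2 members (7.14%), F9 and Serpind1, and 1.41% of all windows. The GTTAAT members were C4bp, C8a, C8b, F13b, F2, Fga, Fgb and Hc, whose ratios ran from 0.818 for F2 to 1.04 for C8a. No match in a member window overlapped a match to another motif. A match describes letters only and is not a site of binding.

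Genes of the same systems outside the 37 were taken from lists. Of 36 further coagulation genes, 21 passed the filter, with a median log2 ratio of −0.0033, 12 of them below 0. Of these, 1 was higher and 0 were lower past the threshold. Mug2, which encodes a murinoglobulin, a broad protease inhibitor of mouse plasma, had 47.0 in control and 80.2 in OTD, a ratio of 1.71 (1.55 to 1.88). Of its 50-base stretches, 50.5% also occur in other genes, so its value is less certain than its interval. The most abundant of the list were Pzp, the alpha-2-macroglobulin of mouse plasma, with a ratio of 0.832 (0.824 to 0.840), Mug1 with 0.803 (0.793 to 0.812), and Apoh, a phospholipid-binding plasma protein, with 0.850 (0.836 to 0.864). The 6 measured genes of the vitamin K cycle and of secretion had a median log2 ratio of −0.0018, while the 7 genes of the vitamin K-dependent factors and F5 had −0.18.

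Of 37 further complement genes, 32 were in the table and 24 passed the filter, with a median log2 ratio of −0.075, 17 of them below 0. Of these, 0 were higher and 2 were lower past the threshold. C1rb, a copy of the classical pathway protease gene C1ra, had 44.4 in control and 25.9 in OTD, a ratio of 0.584 (0.512 to 0.665). C1ra had a ratio of 0.899 (0.863 to 0.936), and 60.6% of the 50-base stretches of C1rb also occur in other genes, mostly in C1ra. Colec10, which encodes a collectin of the lectin pathway, had 80.8 and 64.3, a ratio of 0.795 (0.728 to 0.868). Among the most abundant were Vtn, which encodes the terminal pathway inhibitor vitronectin, with a ratio of 0.848 (0.835 to 0.862), and Clu, which encodes clusterin, with 0.885 (0.866 to 0.904). The 3 C1q genes of macrophages had ratios from 0.946 to 0.983, and each interval held 1.

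**Figure D5:**
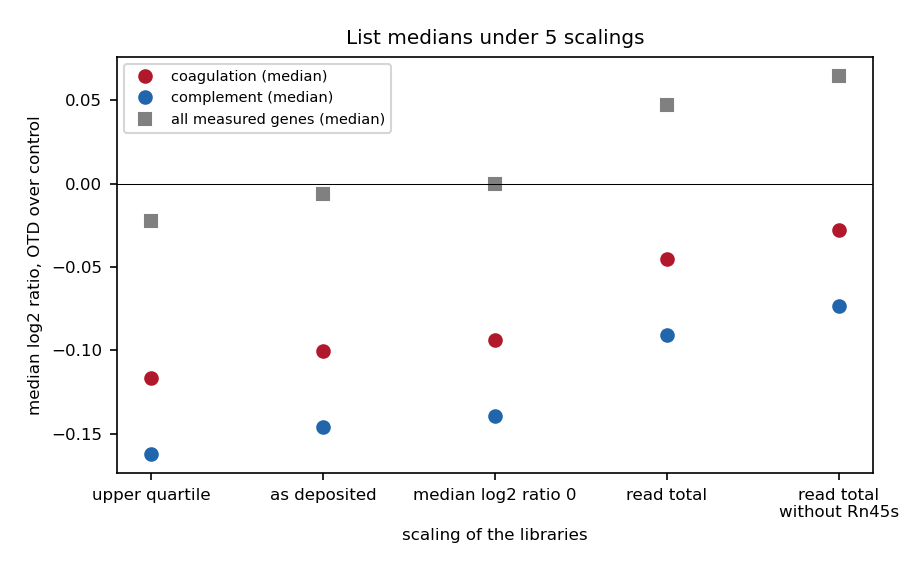
Median log2 ratio of OTD over control (vertical) for 21 coagulation genes (red), 16 complement genes (blue) and all measured genes (gray squares) under 5 scalings of the libraries (horizontal). The coagulation median runs from −0.12 to −0.028 and the complement median from −0.16 to −0.073, and the all-gene median lies above both under each scaling. Each scaling multiplies a whole library by a constant, so all medians shift nearly alike by construction.

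The level of the shift depended on how the libraries were scaled. Each scaling multiplies a whole library by a constant and moves all log2 ratios nearly alike. The distance to other genes could therefore hardly change, and these scalings do not test it. Scaled to the same read total without Rn45s, the median log2 ratio was −0.028 for coagulation, −0.073 for complement and 0.065 for all measured genes. Under that scaling 14 of 21 coagulation genes and 10 of 16 complement genes were below 0, against 35.3% of all measured genes. The split of calls at the 0.32 threshold over all measured genes was 540 higher and 376 lower as deposited, 781 and 241 after scaling to the same total, and 876 and 226 when Rn45s was also left out.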

How the data were processed

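The authors deposited 1 table of a normalized read signal per gene symbol for the 2 pooled liver libraries. The tools edgeR, RSEM, Bowtie2 and Trimmomatic 0.38 and the build mm10 appear, per the submitters' processing notes, but not their roles or order. Per the labels' protocols, 200 ng of total RNA was depleted of ribosomal RNA for directional MGI libraries. Gene filter, annotation and use of strand: not given in the sources used here, so antisense pairs may share reads. In both columns 100% of the values were whole multiples of 1 read (tolerance 1e-06), so whole reads were recovered: 13569189 for control and 14685193 for OTD. Each column name carries the abbreviation of its group (Ctrl or OTD), which matched it to its sample; both names also hold the unexplained word Wild.

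A single library in each group leaves no spread to test against, so no count test was run. Log2 ratios used a pseudocount of 1 and so understate the differences of low genes. Measured genes had a mean level of at least 10, and a difference was counted from a log2 ratio of 0.32 in either direction. Ratios carry 95% exact Clopper-Pearson intervals, and ratios of ratios (19 pairs of genes) carry log-scale intervals from the 4 read counts; both cover counting error only. Transcript lengths, exons and coordinates came from GENCODE M21 (GRCm38), using the longest principal coding transcript, and promoter windows from RefSeq (GRCm38.p6). The members and lists were chosen with earlier results of these data known. All 37 members are named; of the wider lists, measured genes past that size and the 3 most abundant are named, except 1 that is not reported here, and any other gene was named with its value known. The scripts were tested on simulated data. Alternatives were other pseudocounts, scalings, filters, size thresholds and the class of Serping1. Software was scipy 1.17.1, pandas 2.3.3, numpy 2.4.6 and matplotlib 3.10.9 under Python 3.11.15.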

Additional observations from a re-analysis of the deposited data

How the results depend on the processing

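No paired analysis was possible because each group was 1 library. For the same reason no replicate could be left out. Of 49 alternative values of the class medians, their difference and the counts past the 0.32 threshold, 36 stayed within counting error or within 1.5 times. The coagulation median was −0.045 with both libraries set to the same read total and −0.028 if that total excluded Rn45s, where the complement median was −0.073. The count of complement genes past it was 1 with a pseudocount of 10, after scaling to the same total with or without Rn45s, and after scaling to a median log2 ratio of 0, since C3 lay at the threshold. The count of coagulation genes was 1 after scaling to the same total with or without Rn45s. Of all measured genes, 3.17% were lower and 10.3% higher there with Rn45s, and 2.95% and 11.4% without it. At 1.5-fold and at 2-fold the counts of both classes were 0. Both medians were negative, and the difference of the medians lay between −0.070 and −0.044, under each alternative. The scalings move both medians nearly alike, and all 37 members already passed the filter. Those scalings and the removal of the filter could therefore hardly change the difference. Part of the 36 values that stayed was thus fixed in advance. Of the 37 members, 29 kept the sign of their log2 ratio under each scaling, and a pseudocount cannot change a sign. F10, Serpinf2 and C8b were above 0 after scaling to the same total, and F7, Fgb, Serpind1, Hc and C4bp joined them if the total excluded Rn45s. The depth limits C6 most, at 205 and 215 reads.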
